A study of Homo sapiens with 6 samples.

Results

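The cadherins and catenins examined here are the 7 genes of the adherens junction core named for this purpose by symbol, *CDH1*, *CDH2*, *CDH3*, *CTNNA1*, *CTNNB1*, *CTNND1* and *JUP*, out of 57905 genes in the count table. Every one of the 7 passed the filter on low counts, which kept 14178 genes. The question was whether *CDH1* changes with its catenins. RT4 cells, a long-established human line grown out of a papillary bladder tumour that had not entered the muscle, labelled WT in genotype, were transfected with the *LEADR* siRNA (LEADR-KD, 3 samples) or with a universal negative control siRNA (Scramble, 3 samples). Both groups received 100 pmol of siRNA with the same lipid reagent for 48 h and grew in the same serum-containing medium. *LEADR* is a spliced transcript of *MIR205HG*, the host gene of miR-205. As a model, the comparison rests on 1 cell line and 1 *LEADR* siRNA sequence. Poly(A) RNA was sequenced, and gene counts and FPKM (fragments scaled by gene length and by library depth) were deposited for each library. The study's methods call the samples biological replicates without saying whether they were separate cultures, and the p values reflect how far these samples spread.

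Classical cadherins are transmembrane proteins that bind cadherins of the neighbouring cell and so hold epithelial cells together. Their cytoplasmic tail binds β-catenin or plakoglobin, which bind α-catenin, and α-catenin binds actin. p120-catenin binds the tail nearer the membrane and limits the uptake of the cadherin from the cell surface. β-catenin outside the junction is marked for degradation by a destruction complex, and when that fails it enters the nucleus and acts with TCF and LEF factors. In urothelium, as in other epithelia, E-cadherin is the main classical cadherin, P-cadherin is usual in basal cells, and a switch to N-cadherin is a known feature of cells that leave the epithelial state.

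The depth was 17369580, 17841279 and 17375784 counts in LEADR-KD libraries 1 to 3, against 17842088, 18960822 and 15706033 in Scramble libraries 1 to 3. Both libraries numbered 1 had the largest mitochondrial share of counts, 10.8% in LEADR-KD and 11.9% in Scramble, against 3.06% to 5.73% in the other 4. *MIR205HG* had 113, 211 and 101 counts in LEADR-KD and 511, 337 and 346 in Scramble, a fold of 0.36 (95% interval 0.243 to 0.534, edgeR adjusted p = 0.00180). Of the epithelial and urothelial markers, 10 of 11 were tested. The 11 together summed to 7478 to 8139 CPM (counts scaled to a common library depth) in LEADR-KD and 6536 to 7211 CPM in Scramble, most of it from *KRT7*, *KRT8*, *KRT18* and *KRT19*. *KRT18* was higher (log2 fold change 0.39, edgeR adjusted p = 0.0297), a call lost in 4 of the 6 fits without a library. The others tested did not pass, with log2 fold changes from -0.25 (*GATA3*) to 0.28 (*KRT8*). *KRT5* had at most 6 counts. Of the fibroblast markers, *COL1A2*, *DCN*, *PDGFRB*, *PDGFRA*, *THY1* and *FAP* had no count in any library, and the 9 together summed to 18.4 to 25.6 CPM in LEADR-KD and 26.4 to 32.0 CPM in Scramble. *COL3A1* made up most of this sum, with 18.73, 16.12 and 24.69 CPM in LEADR-KD and 24.85, 26.12 and 30.8 CPM in Scramble. It did not pass the test (log2 fold change -0.46, edgeR adjusted p = 0.0572). No leukocyte marker exceeded 8 counts, *CD3E*, *CD68* and *LYZ* being at 0. The 6 endothelial markers measured summed to 2.998 to 4.69 CPM in LEADR-KD and 7.63 to 10.4 CPM in Scramble, with *KDR* and *TEK* at 0. *VWF*, the only 1 of the 6 with enough counts to be tested, made up most of this sum. It was lower in LEADR-KD (log2 fold change -1.16, edgeR adjusted p = 0.00553).

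*CDH1*, which encodes E-cadherin, was the only 1 of the 7 that passed the test in the fit without a replicate block. It was 2.16-fold higher in LEADR-KD than in Scramble, while the 4 catenins and the other 2 cadherins had fitted folds between 0.906 and 1.19 and adjusted p of 0.216 or more. Over all genes tested, 12.2% were higher and 12.1% lower in LEADR-KD at an adjusted p under 0.05 (edgeR quasi-likelihood test, Benjamini-Hochberg), 24.4% in either direction, so 1 of 7 higher is close to the background share. No member was lower by edgeR, nor at an unadjusted p under 0.05 (0 genes), nor by DESeq2 (0) or limma (0). A rise with a log2 fold change above 1, as that of *CDH1*, was found in 1.64% of the genes tested, and a fall beyond -1 in 2.58%.

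*CDH1* (ENSG00000039068) lies at chr16:68771128-68869451 on the plus strand (GRCh37, the build called hg19 in the submitters' processing notes). It had 112, 118 and 100.0 FPKM in LEADR-KD libraries 1 to 3, against 52.0, 52.4 and 47.7 FPKM in Scramble libraries 1 to 3. Every LEADR-KD library thus lay far above every Scramble library, and within each group the libraries stayed close (coefficient of variation 8.48% in LEADR-KD and 5.14% in Scramble). The annotated span of *CDH1* holds 1 other tested gene, the pseudogene *FTLP14* on the same strand, with at most 1.88 CPM in a library and a log2 fold change of 0.10 (adjusted p = 0.890). The levels of *CDH1* came from 11027, 13322 and 10898 counts in LEADR-KD and 5483, 6328 and 4969 counts in Scramble. The log2 fold change was 1.11 with a standard error of 0.09 (95% interval 0.91 to 1.32), at an adjusted p of 1.28e-05. It ranged from 1.06 to 1.18 when each library was left out in turn, with adjusted p between 2.44e-05 and 2.27e-04, and was 1.11 in the libraries numbered 2 and 3 only. By p value *CDH1* was 95th of the 14178 genes, and by fold it was 181st of the 1736 genes called higher. Of the genes called higher, 21, itself included, had a mean CPM at least as large, and *CDH1* was the only 1 of these with a log2 fold change above 1. That cut is the mean of *CDH1* itself over all libraries, its LEADR-KD values included, so the set depends on *CDH1*.

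*CDH3*, which encodes P-cadherin, lies upstream of *CDH1* on the same strand at chr16:68670092-68756519, ending 14608 bp before *CDH1* begins. It had 27.2, 30.1 and 30.2 FPKM in LEADR-KD and 28.7, 32.7 and 31.7 FPKM in Scramble, and the groups overlapped. Its log2 fold change was -0.10 (standard error 0.08, 95% interval -0.28 to 0.08, adjusted p = 0.436). The interval leaves room for a fold of 0.821 to 1.06, far from the 2.16 of its neighbour. On the other side of *CDH1*, 8055 bp downstream, *TANGO6* had 165, 185 and 186 counts in LEADR-KD and 184, 188 and 150 in Scramble (log2 fold change 0.08, adjusted p = 0.750). The gene before *CDH3* among those looked at, *ZFP90*, had a log2 fold change of -0.08 (adjusted p = 0.762). These 2 flanking genes were chosen after the values of *CDH1* were seen. The rise at this locus was therefore measured for *CDH1* and was not found in *CDH3*, *TANGO6* or *ZFP90*.

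*CDH2*, which encodes N-cadherin, lies at chr18:25530930-25757410 on the minus strand and was barely expressed. It had 50, 46 and 72 counts in LEADR-KD and 54, 50 and 48 in Scramble, or 0.634, 0.508 and 0.822 FPKM in LEADR-KD and 0.636, 0.514 and 0.572 FPKM in Scramble. The groups overlapped, and LEADR-KD library 3 was the highest of the 6. The log2 fold change of 0.18 had a standard error of 0.27 (95% interval -0.40 to 0.76, adjusted p = 0.673), which corresponds to folds of 0.757 to 1.69, and without LEADR-KD library 3 the estimate was -0.02.

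Of the FPKM of the 3 cadherins together, *CDH1* made up 80.1%, 79.5% and 76.3% in LEADR-KD and 63.9%, 61.2% and 59.6% in Scramble. The summed cadherin level was 140 ± 8.93 FPKM in LEADR-KD and 82.3 ± 2.95 FPKM in Scramble (SD, n = 3 each). These sums were computed after the single values were seen.

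**Figure D1:**
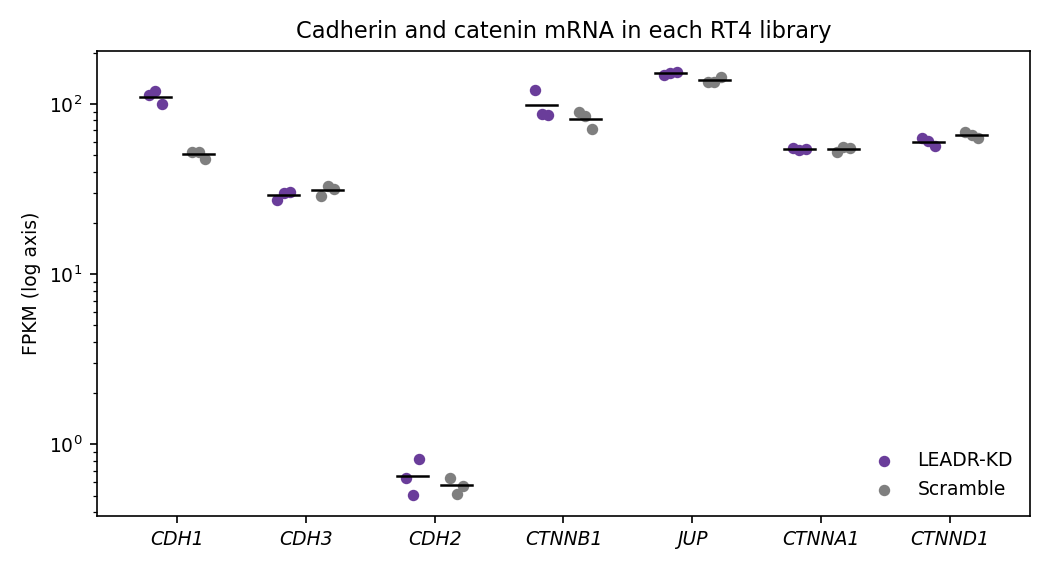
Level of each of the 7 genes in FPKM (log axis) in every library, with LEADR-KD points left of Scramble points and a short line for the mean of the group. *CDH1* sits at 100.0 to 118 FPKM in LEADR-KD and 47.7 to 52.4 FPKM in Scramble, while the groups of *CDH2*, *CDH3*, *CTNNA1* and *CTNNB1* overlap.

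*CTNNB1*, which encodes β-catenin, lies at chr3:41236328-41301587 on the plus strand. It had 120, 87.7 and 86.0 FPKM in LEADR-KD and 89.0, 85.1 and 71.3 FPKM in Scramble. LEADR-KD library 1 stood above all the others, and the other LEADR-KD libraries lay within the range of Scramble. The log2 fold change was 0.25 (standard error 0.14, 95% interval -0.05 to 0.54, adjusted p = 0.216), and it was 0.08 without LEADR-KD library 1, so this library sets much of the estimate. With the libraries numbered 2 and 3 only, an alternative chosen after seeing the mitochondrial shares, it was 0.14 (adjusted p = 0.381). Fitted with the library number as a replicate block, the log2 fold change of *CTNNB1* was 0.238 and passed the test (edgeR adjusted p = 0.0338). A pairing of the samples by number was not established. *ULK4* overlaps *CTNNB1* on the opposite strand with at most 150 counts in a library, and it is unknown whether the counting used strand.

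*JUP*, which encodes plakoglobin, takes the place of β-catenin on the cadherin tail and is also a desmosome protein. It lies at chr17:39775692-39943183 on the minus strand. It was the most abundant of the 7, with 148, 151 and 154 FPKM in LEADR-KD and 135, 135 and 143 FPKM in Scramble. All LEADR-KD libraries lay above all Scramble libraries, as they did in 19.9% of the genes tested, but the difference was small. The log2 fold change was 0.13 (standard error 0.09, 95% interval -0.07 to 0.32, adjusted p = 0.350), which did not pass the test. The annotated span of *JUP* overlaps 4 other tested genes, among them *EIF1* on the opposite strand with up to 11216 counts, so its counts are less certain for this reason.

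*CTNNA1*, which encodes αE-catenin, lies at chr5:137946656-138270723 on the plus strand and had almost the same level in all libraries. It had 54.8, 53.8 and 54.3 FPKM in LEADR-KD and 52.1, 55.7 and 54.99 FPKM in Scramble. The log2 fold change was -0.01 (standard error 0.08, adjusted p = 0.949). Its 95% interval of -0.19 to 0.17 corresponds to folds of 0.879 to 1.12.

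*CTNND1*, which encodes p120-catenin, lies at chr11:57520715-57587018 on the plus strand. It had 63.1, 60.3 and 56.8 FPKM in LEADR-KD and 68.2, 65.9 and 63.3 FPKM in Scramble. Each LEADR-KD library lay below every Scramble library, as in 19.9% of the genes tested, with a gap of less than 1 FPKM between the nearest libraries. The log2 fold change was -0.14 (standard error 0.09, 95% interval -0.33 to 0.05, adjusted p = 0.267), which did not pass the test.

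**Figure D2:**
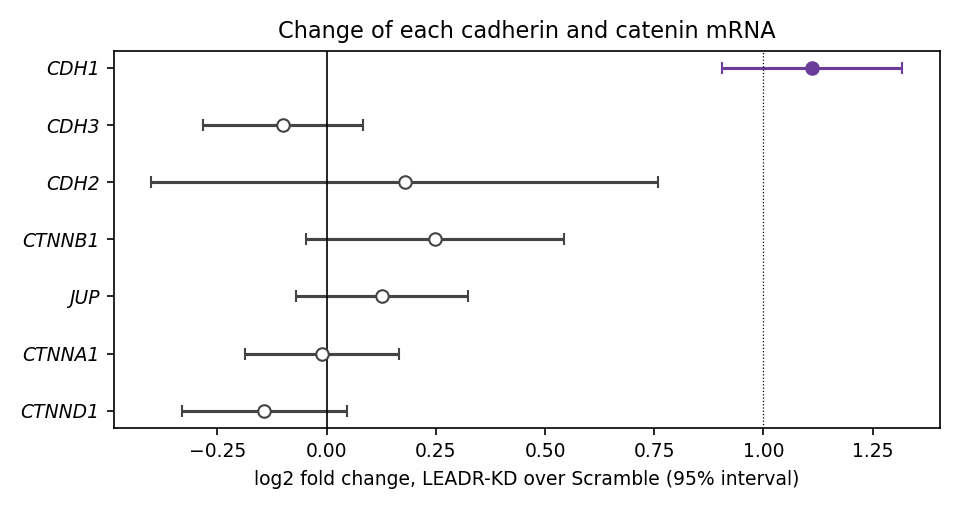
Log2 fold change of LEADR-KD over Scramble for each of the 7 genes with its 95% interval (edgeR), with a filled point for an adjusted p under 0.05. *CDH1* stands at 1.11 (0.91 to 1.32), and the intervals of the other 6 genes hold 0, the widest being that of *CDH2* (-0.40 to 0.76).

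In order of level in LEADR-KD, *JUP* came first, then *CDH1* and *CTNNB1*, whose libraries overlapped, then *CTNND1*, *CTNNA1*, *CDH3* and *CDH2*. In Scramble the order was *JUP*, *CTNNB1* and *CTNND1*, then *CTNNA1* and *CDH1*, whose libraries overlapped (52.1 to 55.7 and 47.7 to 52.4 FPKM), then *CDH3* and *CDH2*. By FPKM, *CDH1* thus stood beside β-catenin in LEADR-KD and beside αE-catenin in Scramble. This order depends on the annotated gene lengths. In counts, *CDH1* lay below *CTNNA1* in every Scramble library (5483, 6328 and 4969 against 7886, 9655 and 8228).

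Ratios within a library compare *CDH1* with its catenins without any scaling between libraries. The ratio of *CDH1* to *CTNNA1* in FPKM was 2.05, 2.20 and 1.84 in LEADR-KD, against 0.998, 0.940 and 0.867 in Scramble. That to *CTNND1* was 1.78, 1.96 and 1.76 in LEADR-KD and 0.761, 0.794 and 0.753 in Scramble. *CDH1* thus exceeded both catenins in every LEADR-KD library and lay below both in every Scramble library. The ratio to *CTNNB1* was 0.937, 1.35 and 1.16 in LEADR-KD and 0.584, 0.615 and 0.669 in Scramble. The ratio to *JUP* was 0.758, 0.784 and 0.649 in LEADR-KD and 0.385, 0.389 and 0.334 in Scramble. On the log2 scale the 4 ratios differed by 1.12 for *CTNNA1*, 1.252 for *CTNND1*, 0.87 for *CTNNB1* and 0.98 for *JUP*. The ratio of *CDH3* to *CDH1* was 0.242, 0.254 and 0.302 in LEADR-KD and 0.553, 0.625 and 0.665 in Scramble, a log2 difference of -1.21. In these 5 ratios the groups did not overlap, and each reached the smallest p that 3 libraries against 3 allow (exact two-sided permutation test, p = 0.1, adjusted over 8 ratios 0.133), so the design could not reach 0.05.

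Among the catenins the ratios moved less. *JUP* over *CTNNB1* was 1.24, 1.72 and 1.79 in LEADR-KD and 1.52, 1.58 and 2.01 in Scramble (exact permutation p = 0.7, adjusted 0.7). *CTNNA1* over *CTNNB1* was 0.457, 0.613 and 0.631 in LEADR-KD and 0.585, 0.654 and 0.772 in Scramble (exact permutation p = 0.4, adjusted 0.457). Both ratios overlapped between the groups, and both were lowest in LEADR-KD library 1, where *CTNNB1* was highest. *CTNND1* over *CTNNB1* was 0.526, 0.688 and 0.661 in LEADR-KD and 0.767, 0.775 and 0.887 in Scramble, with no overlap (log2 difference -0.38, exact permutation p = 0.1, adjusted 0.133). *CTNNB1* and *JUP*, which share a binding site on the cadherin tail, summed to 268, 239 and 240.0 FPKM in LEADR-KD and 224, 220 and 214 FPKM in Scramble. The summed cadherins over this sum were 0.523, 0.624 and 0.546 in LEADR-KD and 0.363, 0.390 and 0.373 in Scramble, also computed after the single values were seen. These are ratios of RNA, and protein was not measured here.

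**Figure D3:**
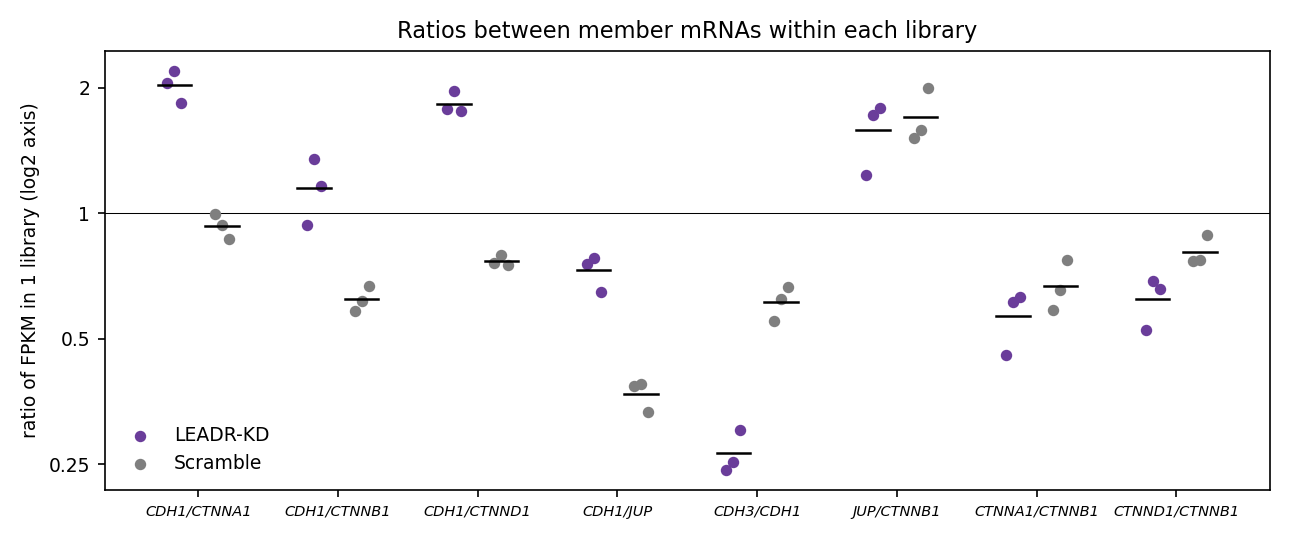
Log2 ratio of FPKM between pairs of the 7 genes in each library, with LEADR-KD left of Scramble. The 4 ratios with *CDH1* on top lie higher in every LEADR-KD library, by 0.87 to 1.252 on average, whereas *JUP* over *CTNNB1* and *CTNNA1* over *CTNNB1* overlap between the groups.

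Over the 6 libraries, the log2 CPM of *CDH1* had a Pearson r of 0.821 with *JUP*, 0.598 with *CTNNB1*, 0.22 with *CDH2*, -0.184 with *CTNNA1*, -0.567 with *CDH3* and -0.728 with *CTNND1*. These values describe 6 points that fall into the 2 groups and share their depth scaling. In a search of the 9426 genes whose mean reached 10 CPM, those most like *CDH1* over the libraries included *STAT5B* (r = 0.998, log2 fold change 0.99), *MAPK14* (0.998, 0.62), *DLC1* (0.997, 1.65) and *ESYT1* (0.997, 0.45). Those most like *CTNNB1* included *DNM1L* (0.996, 0.16), *MIER1* (0.996, 0.29), *GNL2* (0.995, 0.15) and *EIF4G2* (0.994, 0.18). The named genes nearest *CDH1* were called higher, and none of those named nearest *CTNNB1* passed the test. This follows from the choice by r. Genes picked for *CDH1* share its split between the groups, and those picked for *CTNNB1* share its high value in LEADR-KD library 1.

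The siRNA is shown next because an siRNA strand can also lower transcripts whose 3′ UTR matches its seed, bases 2 to 8 from the 5′ end, as microRNAs do. The seed is in capitals in both strands. Neither strand was aligned to *LEADR*, so the one meant to pair with it is not named here.
siRNA strand as listed: aACUGGGUgcuuuauauagga
complementary strand: uCCUAUAUaaagcacccaguu
The letters searched on the sense strand of the annotated 3′ UTRs were ACCCAGTA, ACCCAGT and CCCAGTA for the listed strand and ATATAGGA, ATATAGG and TATAGGA for the complementary strand, the first of each holding the other two. The UTRs were those of the canonical GENCODE transcripts on GRCh37, and this search was added after the fold changes were seen. No match to either strand was found in the 3′ UTRs of *CDH1*, *CDH2*, *CDH3*, *CTNNA1*, *CTNNB1* and *CTNND1*. That of *JUP*, which did not pass the test, holds CCCAGTA, shown with its flanks (chr17:39911971-39911993, minus strand).
JUP: ggcctggcCCCAGTAcggccccc
A match to the listed strand was present in 17.8% of all 12080 tested genes with such a UTR, in 34.2% of those lower in LEADR-KD and in 13.3% of those higher, with UTRs of all lengths counted. For the complementary strand these shares were 13.4%, 15.4% and 16.4%. A match is a description of the letters and does not show that the siRNA acts there.

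The genes that work around the cadherin complex were described by 10 lists of related genes, each read against the 12.2% higher and 12.1% lower of all genes tested, whose median log2 fold change was -0.01. Of 22 other cadherins only 4 had enough counts to be tested, and the remaining 18 never exceeded 15 counts in a library. *CDH26*, a cadherin found in epithelia, was lower, with 50.6, 41.1 and 44.2 CPM in LEADR-KD and 76.7, 64.8 and 74.3 CPM in Scramble (log2 fold change -0.67, adjusted p = 9.15e-04). None of the 4 was higher by edgeR, by DESeq2 (0) or at an unadjusted p under 0.05 (0), so *CDH1* was the only cadherin found to rise among the 7 that could be tested in both sets. Of 5 tested catenin relatives, *CTNNAL1*, which encodes the α-catenin relative α-catulin, was higher (0.48, adjusted p = 0.00408). *PKP4*, a p120 relative of junctions and desmosomes, was lower (-0.25, adjusted p = 0.0260), a call that did not survive the removal of any single library (adjusted p up to 0.0814).

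Of the 32 genes that tie the complex to actin and microtubules, all tested, 12 were higher (37.5%), 3 lower (9.38%) and 17 did not pass, with a median log2 fold change of 0.16. *MYH10*, the heavy chain of non-muscle myosin IIB, had 135, 126 and 114 CPM in LEADR-KD and 66.2, 53.5 and 61.7 CPM in Scramble (log2 fold change 1.05 ± 0.10 SE, adjusted p = 3.20e-05). *DIAPH1*, a formin that builds unbranched actin filaments, had 547, 525 and 504 CPM in LEADR-KD and 343, 343 and 348 CPM in Scramble (0.61, adjusted p = 2.79e-04). In both genes the groups were far apart, as in *CDH1*. *KIFC3*, a minus-end microtubule motor at adherens junctions, was also higher (1.01, adjusted p = 0.00564). *FMN1*, another formin bound by α-catenin, was higher by 0.81 at low counts (adjusted p = 0.0473), and lost its call without LEADR-KD 1, LEADR-KD 2, Scramble 2 or Scramble 3. *VCL*, vinculin, which α-catenin recruits under tension and which was named after its value was seen, was higher by 0.45 (adjusted p = 0.00721). *ENAH*, an actin elongation factor, was lower by a log2 fold change of -0.51 (adjusted p = 0.00132), and *AJUBA*, a LIM protein that binds α-catenin, by -0.28 (adjusted p = 0.0360). The call of *AJUBA* was lost in each fit without a library except that without Scramble 1. The count of 12 higher was 6 without LEADR-KD 1, LEADR-KD 2, Scramble 2 or Scramble 3, 7 when library totals replaced TMM scaling and 3 with limma on log2(FPKM + 1) and no filter.

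**Figure D4:**
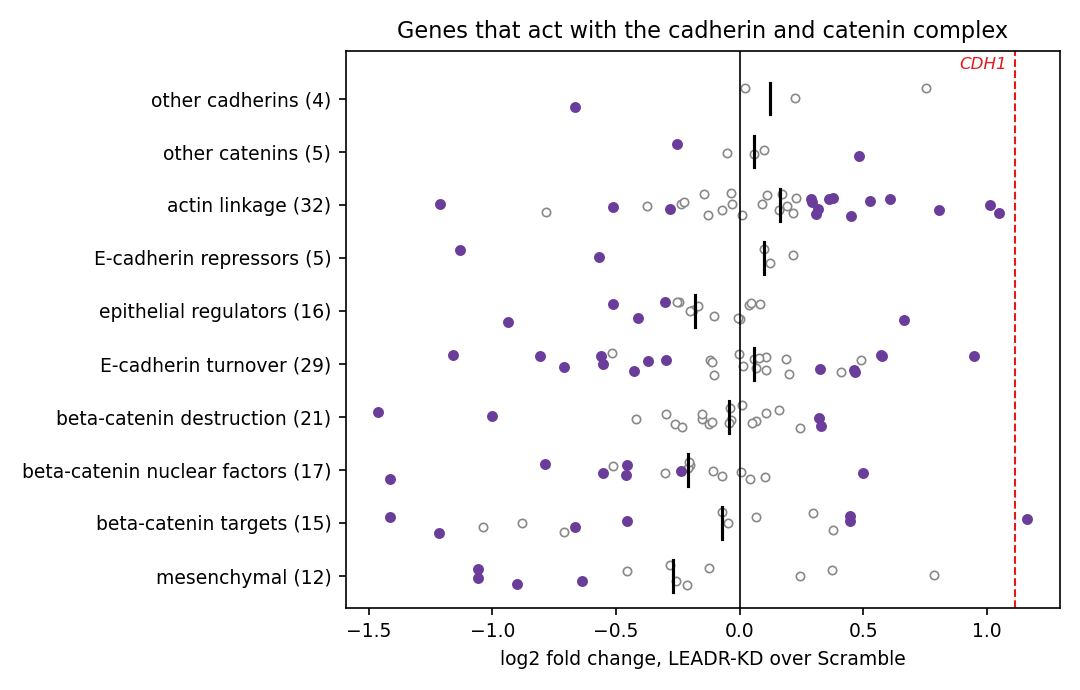
Log2 fold change, LEADR-KD over Scramble, of every tested gene in the 10 lists (number tested in brackets), filled where the adjusted p was under 0.05, a short black line for the median of the list and a dashed line at *CDH1* (1.11). The actin linkage list has 12 filled points to the right of 0 and 3 to the left, and the filled points of the mesenchymal list all lie to the left.

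Of the 12 transcription factors known to repress *CDH1*, 5 could be tested, 2 were lower and none was higher by edgeR, DESeq2 (0) or at an unadjusted p under 0.05 (0). *TCF4*, which encodes the E-box factor E2-2 and is not the TCF partner of β-catenin, had 4.76, 4.68 and 4.81 CPM in LEADR-KD and 11.0, 9.65 and 10.6 CPM in Scramble (log2 fold change -1.13, adjusted p = 4.92e-04). *KLF8*, a zinc finger repressor, was lower by a log2 fold change of -0.57 (adjusted p = 0.0158), a call lost without Scramble 1 or LEADR-KD 3 (adjusted p up to 0.0629). *SNAI2*, the zinc finger repressor Slug, had 179, 176 and 226 counts in LEADR-KD and 191, 210 and 158 in Scramble (0.10, adjusted p = 0.699), with the groups overlapping. The best known repressors were near the detection limit. *SNAI1* had at most 3 counts in a library, *ZEB1* at most 2 and *ZEB2* at most 11, and *TWIST1*, *TWIST2* and *GSC* had none, which, at a floor of 3 counts, allows up to 0.188 CPM in a library. With limma on log2(FPKM + 1) the adjusted p of *KLF8* was 0.0540, while *TCF4* lay under the filter of 0.5 FPKM in every library and passed without that filter (adjusted p = 0.0468).

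Of the 16 factors known to keep the epithelial state, 1 was higher and 4 lower, with a median log2 fold change of -0.18. *KLF4* was higher (0.66, adjusted p = 0.0174), a call lost without Scramble 2, LEADR-KD 2 or LEADR-KD 3. *ELF3*, an ETS factor of epithelia (-0.51, adjusted p = 0.0102), *ESRP2*, an epithelial splicing regulator (-0.41, adjusted p = 0.00637), and *FOXA1*, a urothelial pioneer factor (-0.30, adjusted p = 0.0222), were lower, the call of *FOXA1* being lost without Scramble 2, LEADR-KD 1 or LEADR-KD 3. The other 11 factors did not pass the test.

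Of the 12 tested genes that go with a cadherin switch, 4 were lower and none higher by edgeR, against 1 higher by DESeq2 and 1 at an unadjusted p under 0.05. The matrix protease gene *MMP2* had 10.3, 7.76 and 8.67 CPM in LEADR-KD and 15.3, 16.5 and 18.03 CPM in Scramble (log2 fold change -0.90, adjusted p = 0.00136). *S100A4*, a calcium-binding protein of motile cells, was lower by a log2 fold change of -0.64 (adjusted p = 0.0107). The fibronectin receptor subunit gene *ITGA5* (-1.06, adjusted p = 0.0260) and the matrix protein gene *TGFBI* (-1.06, adjusted p = 0.0309) were also lower, each losing its call in 4 of the 6 fits without a library. Without LEADR-KD 2, 2 genes of the list were lower.

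Of 29 genes for E-cadherin shedding, phosphorylation, uptake and recycling, 6 were higher (20.7%), 8 lower (27.6%) and 15 did not pass. *PTPRJ*, a receptor phosphatase that acts on p120, had 47.4, 46.8 and 42.6 CPM in LEADR-KD and 25.2, 22.3 and 23.5 CPM in Scramble (log2 fold change 0.95, adjusted p = 7.64e-05). *ADAM15*, a metalloprotease (0.58, adjusted p = 9.35e-04), *NUMB*, an endocytic adaptor (0.47, adjusted p = 0.00143), and *FER*, a kinase bound by p120 (0.57, adjusted p = 0.0310), were higher, the call of *FER* being lost in 4 of the 6 fits without a library. *RAB5A*, the GTPase of early endosomes, had 31.6, 24.3 and 26.7 CPM in LEADR-KD and 63.8, 66.5 and 54.1 CPM in Scramble (-1.16, adjusted p = 5.75e-05). Lower too were *PTPRM*, a phosphatase that associates with cadherins (-0.81, adjusted p = 1.49e-04), *MGAT5*, which adds branched N-glycans (-0.71, adjusted p = 5.69e-04), and the SRC family kinase gene *YES1* (-0.56, adjusted p = 0.00206). The count of 6 higher was 3 without LEADR-KD 1 or Scramble 3.

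Of 21 tested genes for β-catenin destruction, 2 were higher, 2 lower and 17 did not pass. *BTRC*, which encodes the ubiquitin ligase subunit β-TrCP that recognises phosphorylated β-catenin, had 9.15, 7.21 and 10.1 CPM in LEADR-KD and 28.4, 23.6 and 20.8 CPM in Scramble (log2 fold change -1.46, adjusted p = 9.57e-05). *RNF146*, a ubiquitin ligase that acts on axin, had 8.96, 9.68 and 7.53 CPM in LEADR-KD and 16.1, 19.4 and 16.95 CPM in Scramble (-1.003, adjusted p = 6.21e-04). The kinase gene *CSNK1A1* was higher (0.33, adjusted p = 0.0134, and 0.0510 without Scramble 3), as was the ligase scaffold gene *CUL1* (0.32, adjusted p = 0.0216), whose call was lost in 4 of the 6 fits without a library. None of the 21 was higher without Scramble 3 or with library totals.

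Of 17 tested nuclear partners of β-catenin, 1 was higher and 6 lower (35.3%), with a median log2 fold change of -0.21. *LEF1*, an HMG-box partner of β-catenin, was lower at low counts, with 1.00, 1.38 and 0.850 CPM in LEADR-KD and 3.36, 2.57 and 2.75 CPM in Scramble (log2 fold change -1.41, adjusted p = 0.00791). *TCF7L1* (-0.79, adjusted p = 0.00667), the coactivator gene *BCL9* (-0.55, adjusted p = 0.00978) and *SOX9* (-0.46, adjusted p = 0.0105) were lower, and the corepressor gene *TLE2* was higher (0.50, adjusted p = 0.0206), a call lost in 4 of the 6 fits without a library. Of 15 tested genes in wide use as readouts of β-catenin and TCF, 3 were higher and 4 lower, so the list did not move one way. *DKK1*, a secreted Wnt antagonist, had 66.8, 76.9 and 92.7 CPM in LEADR-KD and 28.6, 39.2 and 37.7 CPM in Scramble (1.16, adjusted p = 1.71e-04). The cyclin gene *CCND1* (0.45, adjusted p = 0.00335) and the hyaluronan receptor gene *CD44* (0.45, adjusted p = 0.00156) were higher. *LEF1*, which is in both lists, *BMP4* (-1.22, adjusted p = 0.0184, lost without Scramble 1 or LEADR-KD 2), and the ubiquitin ligase genes *RNF43* (-0.67, adjusted p = 0.00265) and *ZNRF3* (-0.46, adjusted p = 0.0130, lost without Scramble 2 at 0.0629), which remove Wnt receptors, were lower.

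Matches to the listed siRNA strand were read in the same lists, each gene counted once. They were present in 13 of the 33 genes with a 3′ UTR that were lower (39.4%), near the 34.2% of all lower genes. Of the 26 that were higher, 2 held a match (7.69%), beside 13.3% of all higher genes. Of the 94 that did not pass, 19 did (20.2%). Of the 9 lower by more than 1 on the log2 scale, 6 held a match. The share over all genes with such a fall was not computed, so this count has no background and shows no excess. For 4 of these 6 genes whose call held without each library, 1 site per gene for the listed strand is shown with 8 flanking bases on each side and the matched letters in capitals, since these were among the largest falls around the complex.
BTRC (chr10:103314269-103314292, plus strand): tctcccacACCCAGTAtttgcaga
RAB5A (chr3:20025888-20025910, plus strand): ttaattatACCCAGTctggtttt
RNF146 (chr6:127609052-127609074, plus strand): tagtaataACCCAGTtttcttga
TCF4 (chr18:52891937-52891959, minus strand): gtcagtccACCCAGTggtgcaac
*BTRC* holds the 8-base match and the other 3 genes the 7-base match, and *TCF4* also holds the 8-base match to the complementary strand. The part of these matches in the lower levels was not tested. Nor was any indirect part in the higher level of *CDH1*, whose canonical 3′ UTR, the only part searched, holds no match to either strand.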

How the data were processed

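Poly(A) RNA of 3 LEADR-KD and 3 Scramble samples was measured in directional (dUTP) libraries. The authors deposited gene counts, not normalized, and FPKM values, and the submitters' processing notes name HISAT2 2.0.5, featureCounts 1.5.0-p3, DESeq2 1.20.0 and hg19, whereas the study's methods name Salmon. No source used here gives a strand setting for the counts. A deposited table of the authors' own comparison (fold changes and p-values) was not used. Counts were tested with edgeR 4.0.16 in R 4.3.3 (TMM, minimum count 10, quasi-likelihood, no covariate, 2-sided, Benjamini-Hochberg over 14178 genes), and "higher" or "lower" means an adjusted p under 0.05. CPM values use TMM scaling. DESeq2 1.42.0, limma 3.58.1 on log2(FPKM + 1) or log2(FPKM + 0.1), other scalings and filters, a replicate block, fits without mitochondrial genes and fits without each library were alternatives. Scripts were tested on simulated data. Intervals of fold changes are from the edgeR fit and include the spread between libraries, whereas floors for a count of 0 cover counting error only. Named genes were all 7 members, *MIR205HG*, up to 4 called genes of each list and direction with the largest change, and the 5 genes most correlated with *CDH1* and with *CTNNB1*. Members and lists were chosen with earlier results of these data known. The siRNA sites, sums, flanking genes and the fit of libraries 2 and 3 were added after seeing the data. The 3′ UTRs and coordinates come from GENCODE on GRCh37 and from the deposited table. A few genes that these rules name are not reported here.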

Additional observations from a re-analysis of the deposited data

How the results depend on the processing

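*CDH1* kept its direction and its call under all 17 alternatives, with log2 fold changes of 1.06 to 1.18, and *CDH3*, *CTNND1* and *JUP* kept their direction without passing the test. The sign of *CTNNA1* turned without a filter and in the 3 limma settings (0.001 each), and its values without 1 library ran from -0.037 to 0.008, all close to 0. *CDH2* ran from -0.019 to 0.335 without 1 library, and the log2 ratio of *JUP* to *CTNNB1* from -0.21 to 0.057. Whether the replicate numbers pair the samples is not settled. The deviations of same-numbered libraries over 2000 genes correlated at 0.766 for number 1, -0.096 for number 2 and 0.689 for number 3. With the number as a replicate block *CTNNB1* passed the test (log2 fold change 0.238, adjusted p = 0.0338), so that 2 members were higher, and 2489 genes were higher and 2365 lower in all. *MIR205HG* missed the threshold with limma and no filter (-1.157, adjusted p = 0.0507). The genes called higher numbered 1085 with library totals and 915 with limma and no filter, which called 854 lower. Without 1 library 1188 to 1457 genes were higher and 1142 to 1472 lower, the fewest lower being without LEADR-KD 2. Of 340 values of the 20 list counts under the alternatives, 56 moved by over 1.5 times, 49 of them down and 7 up. The causes were not tested. Low counts limit *CDH2*, *LEF1*, *BMP4* and the repressors near 0.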
